A study of Mus musculus with 6 samples.

Results

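Leukocyte integrins and selectin ligands are the surface proteins that hold an eosinophil to the vessel wall and carry it into tissue. The 9 genes described here are 4 integrin α chains (Itgam, Itgax, Itgal and Itga4), 3 integrin β chains (Itgb1, Itgb2 and Itgb7), the selectin ligand gene Selplg and the integrin ligand gene Icam1. They were chosen by name as adhesion molecules of eosinophil trafficking, and all 9 were found among the 16254 genes of the count table. RNA was sequenced from eosinophils grown from the bone marrow of C57BL/6 mice 6 to 12 weeks old, which had been cultured for 12 days, first with FLT3 ligand and stem cell factor and then with IL-5. EV-treated cultures received extracellular vesicles (EVs) from activated Th2 cells for 24 h, and Media-treated cultures received unconditioned medium carried through the same isolation. The study's treatment of these eosinophils used 5e9 EVs per ml. Each group had 3 biological replicates, and the comparison asks how gene expression differed between these cultures. In the study's survival assays, activated Th2 cell EVs left more eosinophils alive at 24 h than no treatment did. The part of cell survival in the results for the 9 genes was not tested. The cells are a culture product with no sort named before RNA was taken, so each library can hold RNA of other bone marrow cells.

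An integrin is a pair of 1 α and 1 β chain, and each chain reaches the surface only as part of a pair. Itgb2 encodes the β2 chain, which pairs with the chains of Itgal, Itgam and Itgax to form LFA-1, Mac-1 and p150,95. Itga4 encodes the α4 chain, which pairs with the β1 chain of Itgb1 to form VLA-4 and with the β7 chain of Itgb7 to form α4β7. Eosinophils are known for carrying α4 integrins, which bind VCAM-1 and MAdCAM-1, beside the β2 integrins common to granulocytes. Selplg encodes PSGL-1, the ligand that lets leukocytes roll on P-selectin once enzymes have added its sugars. Icam1 encodes ICAM-1, the main ligand of the β2 integrins.

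By edgeR's quasi-likelihood test with a threshold of 0.01 on the adjusted p, 6 of the 9 genes were higher in EV-treated eosinophils and 0 were lower. Among all 13498 genes tested, 12.1% were higher, 11.6% lower and 23.7% either by the same rule. These shares were not matched to the expression level of the 9 genes. Scaling libraries by their totals alone gave 4 of the 9 genes as higher, and over all genes 1036 higher and 2342 lower in place of 1632 and 1572. The 6 that rose were Selplg, Itgb7, Itgb2, Itgam, Itga4 and Itgal, with fold changes from 1.21 to 1.91. Itgax, Itgb1 and Icam1 did not pass. In the 6 genes that passed every EV-treated library lay above every Media-treated library, a separation seen in 24.8% of all genes tested, with 24.7% separated the other way and 49.6% in either direction. The median log2 fold change was 0.30 over the 9 genes and -0.014 over all genes tested. Of the genes with a lower level in EV-treated eosinophils, 0 reached an unadjusted p under 0.05 in edgeR with TMM scaling. With DESeq2 or limma, 0 were lower at an adjusted p under 0.01. With libraries scaled by their totals alone, edgeR gave log2 fold changes of -0.23 for Itgb1 (adjusted p = 0.0429) and -0.39 for Icam1 (adjusted p = 0.0191). No member reached a log2 fold change of 1. By mean level, 8 of the 9 genes ranked above 90.8% to 99.7% of the genes tested, and Icam1 ranked above 54.2%.

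**Figure D1:**
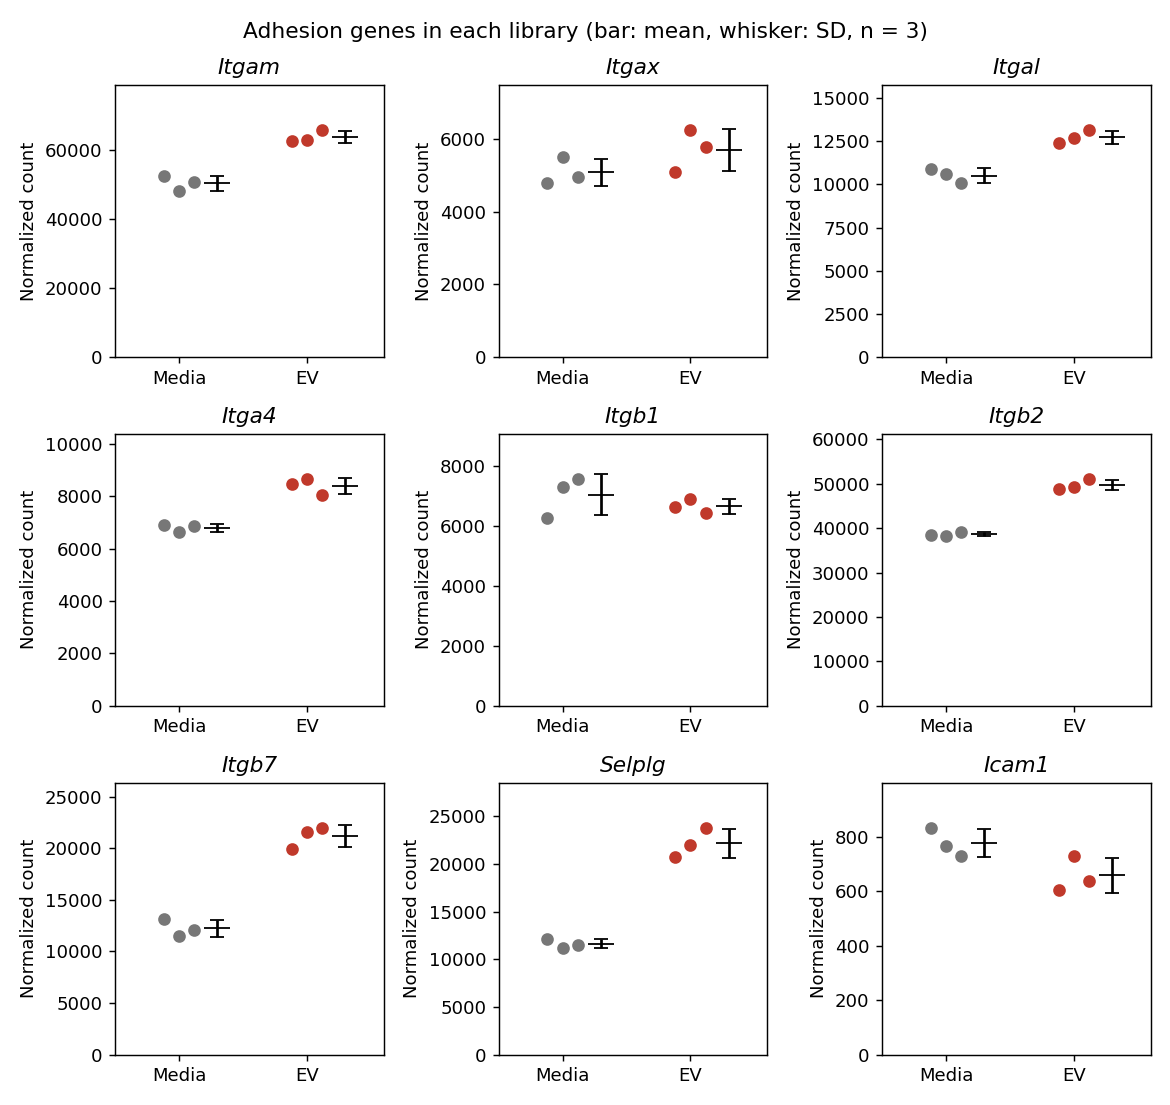
Normalized counts of the 9 adhesion genes (y axis, from 0) in the 3 Media-treated and 3 EV-treated libraries (points), with the group mean and SD beside them. EV-treated points lie above all Media-treated points for Itgam, Itgal, Itga4, Itgb2, Itgb7 and Selplg, and the groups overlap for Itgax, Itgb1 and Icam1.

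**Figure D2:**
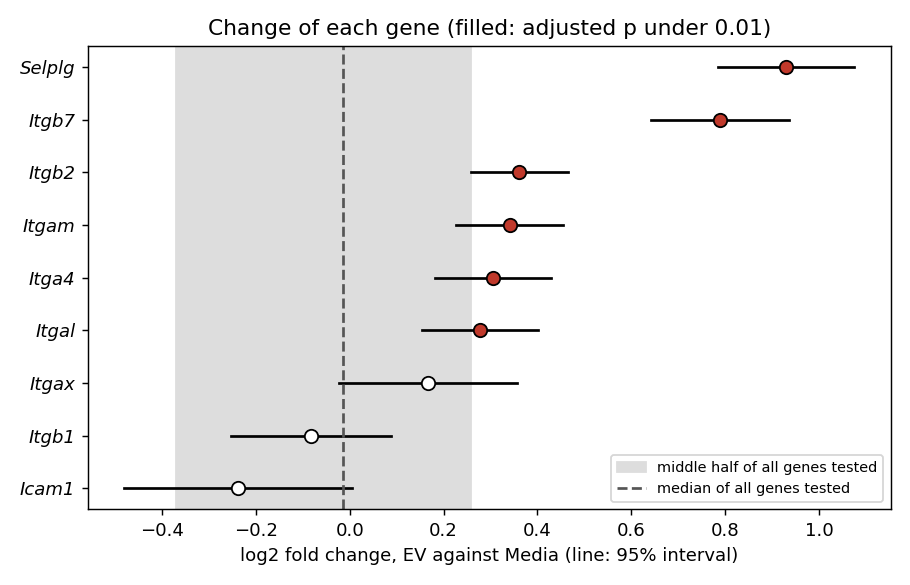
Log2 fold change of each gene, EV against Media (x axis), with its 95% interval, over a grey band for the middle 50% of all genes tested and a dashed line at their median. Selplg (0.93) and Itgb7 (0.79) lie farthest right, 4 further filled points lie between 0.28 and 0.36, and the 3 open points did not pass an adjusted p of 0.01.

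The libraries held 23697620 to 37874426 estimated counts, and the 9 genes took 0.481% to 0.493% of them in Media-treated and 0.575% to 0.596% in EV-treated libraries. Replicates of a group differed by more than sampling noise, with a chi-square per gene of 8.37 to 31.8, so none was counted as a copy of another. The smallest count of any member in a library was 601, for Icam1, and the highest was 75466, for Itgam. Of the 11 eosinophil marker genes, 8 rose and 0 fell, with a median log2 fold change of 0.69 and a summed level of 930213 to 1172120 normalized counts in Media-treated and 1329200 to 1486140 in EV-treated libraries. Of the 11 macrophage and monocyte markers, 8 fell, and Adgre1 and Ly6c2 rose. C1qb, a complement gene of macrophages, had 3128, 6296 and 5701 normalized counts in Media-treated and 498, 1065 and 1134 in EV-treated libraries. The summed level of this list, Adgre1 and Ly6c2 included, was 52406 to 65798 in Media-treated and 66103 to 71619 in EV-treated libraries. In bulk RNA, fewer cells of a type and less RNA per cell cannot be told apart, and the part of a changed cell mixture in the results for the 9 genes was not tested.

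Among the other markers, 4 of 5 mast cell and basophil genes tested rose. The 6 genes listed had a summed 4039 to 5158 normalized counts in Media-treated and 9754 to 11481 in EV-treated libraries. Of 7 neutrophil genes tested, 2 rose and 3 fell. Of 4 stromal and endothelial genes tested, 1 fell. Col1a1 and Col3a1 had log2 fold changes of -2.74 and -2.27 and did not pass (adjusted p = 0.0303 and 0.0419 in edgeR). The summed level of the 7 genes listed was 11240 to 21333 in Media-treated and 1709 to 7606 in EV-treated libraries. Of 5 dendritic cell genes tested, 1 rose. The 8 T cell genes listed had a summed 93.7 to 241 normalized counts in Media-treated and 98.9 to 124 in EV-treated libraries. Cd3d (10 to 77 counts per library) and Cd8a (44 to 75) were the highest of them, and neither passed the test.

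Selplg rose most of the 9 genes. PSGL-1, its product, is the chief ligand of P-selectin on leukocytes. Normalized counts, which are counts scaled to a common library size, were 12165, 11189 and 11543 in Media-treated replicates 1 to 3 and 20685, 22016 and 23781 in EV-treated replicates 1 to 3. The highest Media-treated library lay far under the lowest EV-treated one. The mean was 11632 ± 494 (SD, n = 3, as for every mean below) in Media-treated and 22161 ± 1553 in EV-treated eosinophils, a 1.91-fold rise (95% interval 1.72 to 2.11, adjusted p = 3.33e-06). Its log2 fold change of 0.93 was above that of 93.9% of all genes tested. The gene lies on chromosome 5 of GRCm38, from 113818536 to 113832644, on the minus strand.

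Itgb7 had the second largest rise. Its β7 chain pairs with α4, and with the αE chain of Itgae, and the α4β7 pair binds MAdCAM-1 in gut vessels. Normalized counts were 13144, 11480 and 12118 in Media-treated replicates 1 to 3 and 19948, 21576 and 21963 in EV-treated replicates 1 to 3. The groups did not overlap. The means of 12247 ± 840 and 21162 ± 1069 gave a 1.73-fold rise (95% interval 1.56 to 1.91, adjusted p = 1.05e-05). The gene lies on chromosome 15, from 102215995 to 102231944, on the minus strand.

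Itga4, whose α4 chain is the partner of both β1 and β7, rose less than Itgb7. Normalized counts were 6897, 6633 and 6866 in Media-treated and 8460, 8660 and 8069 in EV-treated replicates 1 to 3. All EV-treated libraries were higher, and the spread within either group was small. The means were 6799 ± 144 and 8397 ± 301, a 1.23-fold rise (95% interval 1.13 to 1.35, adjusted p = 0.00181). The call was lost without EV replicate 2 (log2 fold change 0.29, adjusted p = 0.0141). It was also lost when libraries were scaled by their totals alone (log2 fold change 0.16, adjusted p = 0.0482). That scaling moved the median of all genes by -0.15. The gene spans 79255426 to 79333123 on the plus strand of chromosome 2, and 8.85% of the 31-base words of its transcripts occur in other genes, most of them in Cerkl, whose exons overlap on the opposite strand. Cerkl had at most 85 estimated counts in a library, against at least 5412 for Itga4.

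Itgb1, the β1 chain gene shared by many integrins of blood and tissue cells, did not pass the test. Normalized counts were 6266, 7313 and 7567 in Media-treated and 6649, 6907 and 6423 in EV-treated replicates 1 to 3. Media replicate 1 was the lowest of all 6 libraries, and the other 2 Media-treated libraries were the highest. The mean was 7049 ± 690 in Media-treated and 6660 ± 242 in EV-treated eosinophils, with a fold of 0.945 whose 95% interval ran from 0.84 to 1.06 (adjusted p = 0.451). Media replicate 1 was also the lowest Media-treated library for C1qb and for Csf1r, the receptor gene that marks macrophages, which had 10909, 16415 and 15633 normalized counts in Media-treated replicates 1 to 3. Csf1r had 5084, 6148 and 6103 in EV-treated replicates 1 to 3. Adgre1 and Ly6c2, of the same marker list, were instead lowest in replicate 2 of the Media-treated libraries. The part of macrophage RNA in the level of Itgb1 was not tested.

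Itgb2, the β2 chain gene, was the most uniform of the 9 among Media-treated cultures. Normalized counts were 38537, 38279 and 39194 in Media-treated and 48827, 49167 and 51047 in EV-treated replicates 1 to 3. Every EV-treated library was higher. The means of 38670 ± 472 and 49680 ± 1196 gave a 1.28-fold rise (95% interval 1.2 to 1.38, adjusted p = 0.000181). With libraries scaled by their totals alone, edgeR gave a log2 fold change of 0.21 (adjusted p = 0.00229). That lies under the 95% interval of 0.26 to 0.46 from TMM scaling. The gene lies on chromosome 10, from 77530252 to 77565708, on the plus strand.

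Itgam encodes the αM chain, CD11b, which was also a marker used to gate eosinophils by flow cytometry in the study. Normalized counts were 52342, 47997 and 50724 in Media-treated and 62707, 62928 and 65684 in EV-treated replicates 1 to 3. The groups did not overlap. The means were 50354 ± 2196 and 63773 ± 1659, a 1.27-fold rise (95% interval 1.17 to 1.37, adjusted p = 0.000522). With libraries scaled by their totals alone, edgeR gave a log2 fold change of 0.19 (adjusted p = 0.00596). That lies under the 95% interval of 0.23 to 0.45 from TMM scaling. The gene lies at 128062640 to 128118491 on the plus strand of chromosome 7. Of the 31-base words of its transcripts, 68.3% occur in other genes, nearly all in Gm49368, an annotated gene on the same strand that shares its exons. Reads made only of shared words cannot be assigned by sequence alone, and the resulting error in the values of Itgam was not tested. Gm49368 had 192 to 690 estimated counts per library, against 39164 to 75466 for Itgam.

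Itgal encodes the αL chain, CD11a, which the study also used as a T cell membrane marker on the vesicles. Normalized counts were 10880, 10596 and 10052 in Media-treated and 12383, 12701 and 13132 in EV-treated replicates 1 to 3. The groups did not overlap. The means were 10509 ± 421 and 12739 ± 376, a 1.21-fold rise (95% interval 1.11 to 1.32, adjusted p = 0.00314). This was the least firm of the 6 calls. The adjusted p was 0.0127 without Media replicate 3, 0.0166 without EV replicate 2 and 0.0194 without EV replicate 3, and 0.0746 with libraries scaled by their totals alone. The gene lies at 127296260 to 127335138 on the plus strand of chromosome 7.

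Itgax, the αX chain gene (CD11c), is best known from dendritic cells and macrophages. Normalized counts were 4805, 5502 and 4949 in Media-treated and 5094, 6247 and 5772 in EV-treated replicates 1 to 3. EV replicate 1 lay within the Media-treated range, so the groups overlapped. The means were 5085 ± 368 and 5704 ± 579, with a fold of 1.12 and a 95% interval from 0.984 to 1.28 (adjusted p = 0.161). Itgax lies just downstream of Itgam, at 128129547 to 128150657 on chromosome 7. Of its 31-base words, 10.7% also occur in Itgad, the gene of another β2 partner, which had at most 29 counts in a library.

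Icam1 was the only one of the 9 genes at a modest level. Normalized counts were 833, 767 and 730 in Media-treated and 606, 731 and 639 in EV-treated replicates 1 to 3. EV replicate 2 lay just above the lowest Media-treated library, and the other 2 EV-treated libraries were lower than all of them. The means were 777 ± 51.8 and 659 ± 64.7, with a fold of 0.848 and a 95% interval from 0.717 to 1.00 (adjusted p = 0.118). The gene lies at 21015985 to 21028817 on the plus strand of chromosome 9, and 14.8% of its 31-base words occur in other genes, mostly in Gm47079 on the opposite strand.

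Promoter sequence from RefSeq, 250 bases before to 50 after the start site in GRCm38.p6, was matched by symbol for 6 of the 9 genes (Itgam, Itgax, Itga4, Itgb1, Itgb7 and Icam1) and not for Itgal, Itgb2 and Selplg. The windows were searched on both strands for TTCNNNGAA, the letters STAT factors bind, GAGGAA, the core of sites of the myeloid factor PU.1, GGAAATTCC, an NF-κB site, and TGTGGT, a RUNX core. These 4 were chosen because the factors are known at leukocyte adhesion genes. The 30-base stretches below hold GAGGAA matches in 2 genes that rose, Itgam and Itgb7. They also hold the TTCNNNGAA and GGAAATTCC matches of Icam1, which did not pass. Itgam held further GAGGAA matches that are not shown. The matching letters are in capitals, and each stretch reads 5′ to 3′ along the gene.
Itgam, chr7:128062544-128062573, plus strand, GAGGAA: tgttttctcccgGAGGAAggctacagaggg
Itgb7, chr15:102231916-102231945, minus strand, GAGGAA on the other strand: agggtgtgtcacTTCCTCctctgctgcctc
Icam1, chr9:21015888-21015917, plus strand, TTCNNNGAA: ggcgcgaggtTTCCCGGAAagtggccccga
Icam1, chr9:21015777-21015806, plus strand, GGAAATTCC: acttcagtttGGAAATTCCtagatcgcagg

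The Icam1 matches began 42 and 153 bases before its start site. Of the 6 windows, 1 held TTCNNNGAA, as did 8.30% of all 32851 windows, and 1 held GGAAATTCC, as did 0.317%. GAGGAA occurred in 3 of the 6 (Itgam, Itgb1 and Itgb7) and in 28.3% of all windows, and TGTGGT in 2 (Itgax and Itga4) and in 16.8%. The 2 short motifs are thus common, and Itgb1, which holds GAGGAA, did not pass the test of expression. A match is a description of letters and was not tested for binding.

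Levels of different genes were compared as CPM, which are counts scaled to the TMM-scaled library size, per kilobase of the longest coding transcript. In Media-treated eosinophils the order was Itgb2 at 422 ± 5.15, Itgam at 349 ± 15.2, Selplg at 203 ± 8.63, Itgb7 at 148 ± 10.1, Itgal at 65.2 ± 2.61, Itgb1 at 59.9 ± 5.86, Itgax at 40.7 ± 2.94, Itga4 at 22.6 ± 0.479 and Icam1 at 9.93 ± 0.662 CPM per kilobase. The libraries of Itgal and Itgb1 overlapped, and no other neighbours in this order did. The order was the same in EV-treated eosinophils, where Selplg reached 387 ± 27.1 and Itgb7 256 ± 12.9 CPM per kilobase, and Itgal (76.9 to 81.5) no longer overlapped Itgb1 (54.6 to 58.7). Itgam made up 76.7% ± 1.31 of the 3 α chains that pair with β2 in Media-treated and 78.0% ± 0.757 in EV-treated libraries, on this per-length scale. Itgb7 made up 71.2% ± 3.25 of Itgb1 and Itgb7 together in Media-treated and 81.9% ± 0.986 in EV-treated libraries, and these groups did not overlap. The Itgam shares of the groups overlapped (75.2% to 77.5% and 77.2% to 78.7%). Levels depend on the annotated lengths, and with the median transcript length Itgb7 (922) and Selplg (913) lay above Itgam (391 CPM per kilobase in Media-treated eosinophils).

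**Figure D3:**
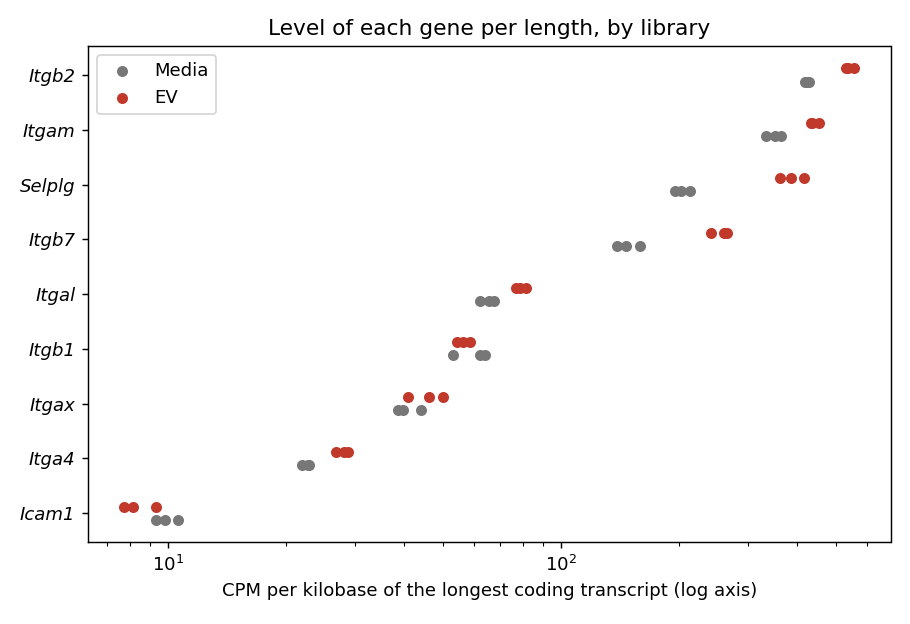
Level of each gene in CPM per kilobase of its longest coding transcript (x axis, log scale) in each Media-treated and EV-treated library (points). Itgb2 and Itgam lie highest, at 422 and 349 in Media-treated eosinophils, and Icam1 lowest, at 9.93.

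A ratio of 2 genes within a library does not depend on how libraries are scaled, so 9 such ratios of estimated counts were compared by an exact two-sided permutation test. With 3 libraries per group this test cannot give a p under 0.1. After adjustment over the 9 ratios the smallest value obtained here was 0.15. For the α chains against β2 the groups overlapped. Itgam to Itgb2 was 1.36, 1.25 and 1.29 in Media-treated and 1.28, 1.28 and 1.29 in EV-treated replicates 1 to 3, a difference of -0.02 on the log2 scale (exact permutation p = 0.7). Itgal to Itgb2 was 0.944 times its Media-treated value and Itgax to Itgb2 0.872 times, each with overlapping groups (exact permutation p = 0.3 for both).

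For the α4 pairs the groups were apart. Itgb7 to Itgb1 was 2.10, 1.570 and 1.601 in Media-treated and 3.00, 3.12 and 3.42 in EV-treated replicates 1 to 3, which is 1.83 times higher with no overlap (exact permutation p = 0.1, the smallest possible). Itga4 to Itgb1 was 1.10, 0.907 and 0.907 in Media-treated and 1.27, 1.25 and 1.26 in EV-treated replicates, and Itga4 to Itgb7 went the other way, from 0.525, 0.578 and 0.567 to 0.424, 0.401 and 0.367. Both had no overlap between groups. Relative to Itgb2, the ratio was 1.48 times its Media-treated value for Selplg, 0.738 times for Itgb1 and 0.66 times for Icam1, again with no overlap and the same p. The ratios share genes, so they are not independent of each other or of the results per gene. How often ratios of other gene pairs separate was not computed.

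**Figure D4:**
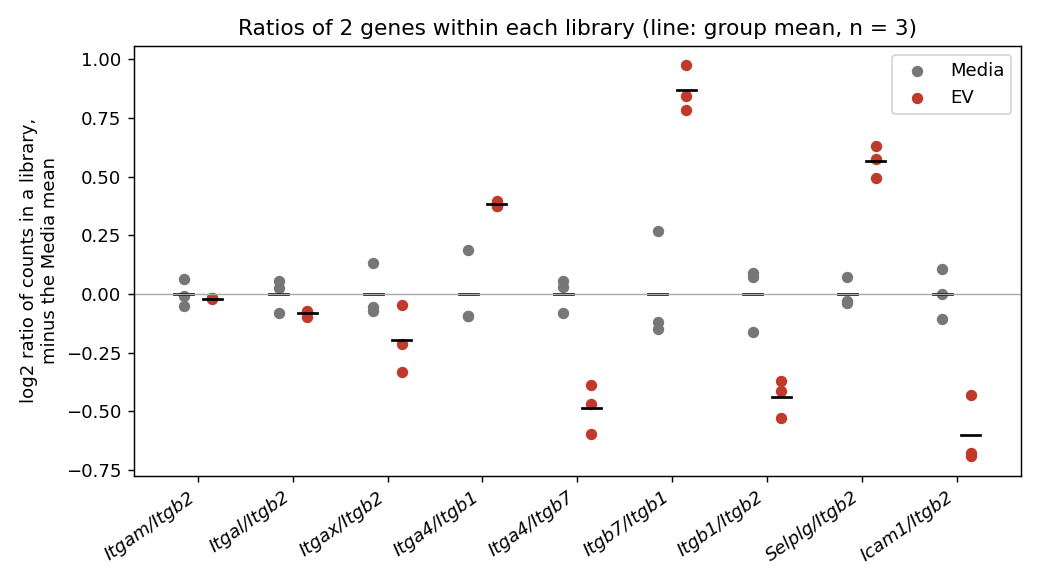
Log2 ratio of the estimated counts of 2 genes in each library, minus the Media-treated mean (y axis), for 9 ratios, with points for libraries and lines for group means (n = 3). The groups overlap for the 3 α chains against Itgb2 and are apart for the other 6 ratios, with Itgb7/Itgb1 farthest up (a difference of 0.87) and Icam1/Itgb2 farthest down (-0.60).

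The rest of the integrin family was read from lists of other chains. Of 12 other α chains tested, 2 rose and 5 fell, with a median log2 fold change of -0.99, and 1 was higher without Media replicate 3 or EV replicate 3. Of the 7 that passed, the 4 with the largest changes all fell. Itga6, a laminin receptor chain, fell from 3305 ± 575 to 1032 ± 51.5 normalized counts (log2 fold change -1.68, adjusted p = 3.64e-06). Itga5, the fibronectin receptor chain, fell from 2050 ± 405 to 838 ± 57.8, a log2 fold change of -1.29. Itgae, the other partner of β7, fell from 1129 ± 40.1 to 359 ± 14.8, a log2 fold change of -1.65, while Itgb7 itself rose. Itga9, an α chain related to α4, fell from 157 ± 50.3 to 11.4 ± 7.58, a log2 fold change of -3.74. Of the 3 other β chains tested, Itgb3 rose and Itgb5 fell. Itgb3, a partner of the αv and αIIb chains, had 3786, 3564 and 3040 normalized counts in Media-treated and 8922, 9141 and 8452 in EV-treated replicates 1 to 3 (log2 fold change 1.35, adjusted p = 1.49e-06). Itgb5, another partner of αv, had 3689, 6685 and 5241 in Media-treated and 665, 805 and 707 in EV-treated replicates (log2 fold change -2.84, adjusted p = 2.61e-06). Like C1qb, and unlike Adgre1 and Ly6c2, Itgb5, Itga5, Itga6 and Itga9 were lowest in replicate 1 of the Media-treated libraries. Itgae was instead highest there, with 1173, 1094 and 1120 normalized counts in Media-treated replicates 1 to 3. The part of macrophage RNA in these falls was not tested.

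Of 30 genes tested whose products activate integrins or tie them to actin, 14 rose and 2 fell, with a median log2 fold change of 0.25, beside 12.1% and 11.6% of all genes tested. Without EV replicate 2 the counts were 9 and 1, the lower count was also 1 without Media replicate 3 or EV replicate 3, and with libraries scaled by their totals alone the counts were 10 and 3. Vcl, which encodes the actin linker vinculin, rose from 6048 ± 122 to 14285 ± 306 normalized counts (log2 fold change 1.24, adjusted p = 1.39e-07). Rassf5, whose product RAPL links the small GTPase Rap1 to integrins, rose from 5662 ± 340 to 13209 ± 168, a log2 fold change of 1.22. Zyx, the gene of the focal adhesion protein zyxin, had a log2 fold change of 1.01 and Fgr, a Src family kinase that acts after β2 integrins, one of 0.95, and both rose.

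Of 7 selectins and other selectin ligands tested, 3 rose and 1 fell. Cd24a, a ligand of P-selectin, rose 2.63-fold, and Spn, the sialomucin CD43, rose 1.61-fold. Cd34 fell from 1771 ± 112 to 1257 ± 45.6, a log2 fold change of -0.49. Cd44, which binds hyaluronan and can bind E-selectin, had 21862 ± 116 and 22148 ± 643 normalized counts (adjusted p = 0.803).

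PSGL-1 binds P-selectin only after sugars and sulfate are added to it. Of 13 genes of these steps tested, 4 rose and 0 fell in edgeR with TMM scaling at an adjusted p under 0.01. With libraries scaled by their totals alone 2 were higher and 1 was lower, and without EV replicate 2 the counts were 2 and 0. St3gal4, a sialyltransferase of selectin ligands, rose from 1791 ± 255 to 4752 ± 45.2 normalized counts (log2 fold change 1.41, adjusted p = 2.74e-06). Gcnt1, which builds the core 2 branch that carries the sugar, rose from 16163 ± 1659 to 29340 ± 1027, a log2 fold change of 0.86. Galnt1 and B4galt1 had log2 fold changes of 0.40 and 0.28. Galnt1 lost its call without EV replicate 2 (adjusted p = 0.0125), and B4galt1 lost it in 4 of the 6 fits without 1 library (all but those without Media replicate 1 or EV replicate 1). Fut7, the fucosyltransferase that completes the ligand, had 544 ± 109 and 502 ± 35.5 normalized counts and did not pass (adjusted p = 0.609). Fut7 was named after its value was seen, as were Cd44 and the vascular ligand genes that follow.

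Of 11 other adhesion ligands tested, 2 rose and 3 fell, and 1 was lower without Media replicate 1, Media replicate 3, EV replicate 2 or EV replicate 3. Cd47, an integrin-associated surface protein, rose from 11995 ± 844 to 24094 ± 981 normalized counts (log2 fold change 1.01, adjusted p = 2.02e-06). Spp1, the gene of osteopontin, which α4 integrins bind, fell from 22805 ± 4273 to 8139 ± 1565, a log2 fold change of -1.49. Fn1, fibronectin, was uneven among cultures, with 7801, 3619 and 5569 normalized counts in Media-treated and 2327, 639 and 639 in EV-treated replicates 1 to 3 (log2 fold change -2.25, adjusted p = 0.00435). The adjusted p of Fn1 was between 0.0152 and 0.0215 without Media replicate 1, Media replicate 3, EV replicate 2 or EV replicate 3. Jam3 had 55 counts over the 3 Media-treated and 3 over the 3 EV-treated libraries, a ratio of 0.0452 with a 95% counting interval from 0.00905 to 0.139. Its call (adjusted p = 0.00798) was lost without any 1 of the 6 libraries, with adjusted p from 0.0108 to 0.0545. Vcam1 and Icam2, ligands of α4β1 and LFA-1, had fold values of 0.883 and 0.89 and did not pass (adjusted p = 0.189 and 0.409).

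**Figure D5:**
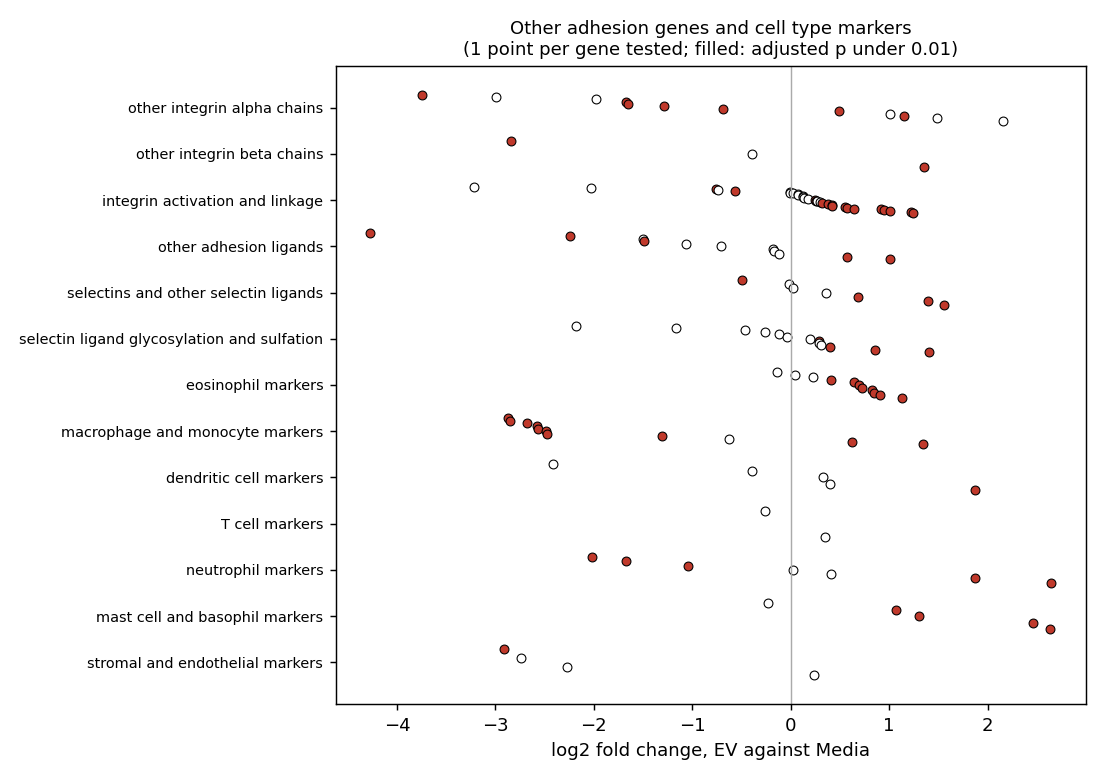
Log2 fold change, EV against Media (x axis), of each gene tested in 6 lists of other adhesion genes and 7 lists of cell type markers (rows), with genes past an adjusted p of 0.01 filled. Eosinophil markers lie mostly right of 0 (8 of 11 rose), macrophage and monocyte markers mostly left (8 of 11 fell), and other integrin chains lie on both sides.

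Over the 6 lists together, 26 of 76 genes tested rose and 12 fell, so 50% passed, where 23.7% of all genes tested passed in either direction. The lists were chosen with earlier results of these data known, and these shares were not matched for expression level. Genes whose pattern was most like a member's were found as those with the smallest root mean square difference of mean-centred log2 level over the 6 libraries, among all genes tested. Arhgdib was nearest to Itgam at 0.0151, Klf3 to Itgal at 0.0102 and Pak2 to Itga4 at 0.0247 log2 units. Kcnab2 was nearest to Itgb2 at 0.0211, Ckap4 to Itgb7 at 0.0277 and Rgs14 to Selplg at 0.017 log2 units. The libraries share depth and treatment, so likeness over 6 of them is a description and carries no test.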

How the data were processed

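Poly(A)-selected RNA of 3 EV-treated and 3 Media-treated eosinophil cultures was sequenced. The authors checked reads with FastQC, trimmed them with Cutadapt and quantified them with Salmon. The build mm10 is named in the submitters' processing notes, and versions, annotation and strand setting are not given in the sources used here. The authors deposited estimated counts for 16254 genes. A further table deposited by them holds normalized counts, a signal made by adding 1 to each rounded count and dividing by a size factor. The deposited table of the authors' own comparison was not used.

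Estimated counts were rounded, filtered with filterByExpr, scaled by TMM and tested with edgeR 4.0.16 (quasi-likelihood test, Benjamini-Hochberg adjustment over 13498 genes) in R 4.3.3. The threshold was an adjusted p under 0.01. Standard errors are the log2 fold change over the root of F. Normalized counts are counts over the TMM-scaled library size, relative to its geometric mean. Limma 3.58.1 and DESeq2 1.42.0 gave alternatives. The fits were tested on simulated data in which every change was larger than that of any member. Libraries held 23697620 to 37874426 counts, and p-values measure the spread between cultures labelled as biological replicates.

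The 9 genes, the lists and the motifs were chosen with earlier results of these data known. Named are all 9 genes, up to 4 genes per list of other adhesion genes with the largest change among those past the threshold without overlap, the cell type markers, and the nearest genes in pattern. One gene that this rule names is not reported here. Positions, lengths and shared 31-base words come from GENCODE vM21. Lengths were planned as the median over coding transcripts, but annotated fragments made that as short as 413 bases for Selplg, so the longest was used and the median became the alternative. The alternatives were other scalings, no filter, DESeq2, limma on log2 values, the replicate number as a block, other thresholds and leaving out each library.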

Additional observations from a re-analysis of the deposited data

How the results depend on the processing

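Of the 9 genes, 6 were higher and 0 lower with DESeq2's size factors, DESeq2, limma, no filter, an adjusted p under 0.05, and the replicate number as a block. Requiring a log2 fold change of at least 1 left 0 of the 9 genes and 9 of the other adhesion genes as higher. With libraries scaled by their totals alone, the median of all genes moved by -0.15 and 4 of the 9 genes were higher. Their log2 fold changes were then 0.78 for Selplg, 0.64 for Itgb7, 0.21 for Itgb2 and 0.19 for Itgam. Itgal (0.13, adjusted p = 0.0746) and Itga4 (0.16, adjusted p = 0.0482) did not pass in edgeR with that scaling. The cause of the shift was not tested. Over all genes that scaling gave 1036 higher and 2342 lower genes, against 1632 and 1572. An adjusted p under 0.05 gave 2478 lower genes, and the requirement on fold change 419 higher and 857 lower. Without 1 library, 4 to 6 of the 9 genes, 1071 (without EV replicate 3) to 1833 of all genes were higher and 1018 (without EV replicate 3; 1044 without EV replicate 2) to 1698 were lower. In these fits the log2 fold change was 0.25 to 0.31 for Itgal and 0.29 to 0.34 for Itga4, and the difference in log2 ratio of Itgam to Itgb2 ran from -0.047 to 0.011, positive without Media replicate 1. The other 8 ratios kept their direction under their alternatives. Of 22 other adhesion genes named by rule, 18 kept their call in every fit, and Jam3, Fn1, Galnt1 and B4galt1 lost it in some.

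Same-numbered libraries deviated together only weakly across genes (r of 0.0967, 0.0812 and 0.0472 for numbers 1 to 3), although each library correlated best with its own number. These values do not settle whether the numbers mark pairs, and the main fit did not take them as pairs. With the replicate block, 1794 genes were higher and 1781 lower, and among the named genes Jam3 alone lost its call (adjusted p = 0.0181). With the median in place of the longest transcript length, Itgb2 had 1990 and Itgb7 922 CPM per kilobase in Media-treated eosinophils, and 14 of the 18 group levels moved by more than their SD.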
